A study of Mus musculus with 4 samples.

Results

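The 8 genes described here encode parts of the phagocyte NADPH oxidase and effector proteins of phagocytes: Cybb, Cyba, Ncf1, Ncf4, Rac2, Lyz1, Lyz2 and Mpeg1. They were taken by symbol from the arrays, where they had 15 of 56605 probes and made up 8 of 27193 named genes. Expression was compared between mice described as MSA Tg (MSA is read here as multiple system atrophy, a neurodegenerative disease) and wild-type mice. All mice were 24 weeks old and shared a background of C57BL/6, 129 and C3H. Brainstem/cerebellum and spinal cord were taken from each genotype, and each of the 4 groups was hybridised to 1 array, so no difference below has a replicate check and no p-value is given. The labels name neither the transgene nor the promoter that drives it, the letters PLP in the sample names are not explained there, and they leave unsaid whether 1 animal or several gave a sample. No agent was given to any group, as far as the labels say.

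The phagocyte NADPH oxidase moves electrons from NADPH across a membrane to oxygen and makes superoxide, which phagocytes use against microbes and as a signal. Its membrane core is a heterodimer of gp91phox (Cybb) and p22phox (Cyba), which stays idle until cytosolic subunits, among them p47phox (Ncf1) and p40phox (Ncf4), and a Rac GTPase dock on it. Lysozymes (Lyz1 and Lyz2) cut the peptidoglycan of bacterial walls, and perforin-2 (Mpeg1) forms pores in engulfed microbes. In the central nervous system these genes are known mainly from microglia, from macrophages at the borders of the brain and from blood phagocytes that enter it.

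The lysozyme pair calls for its sequences, because Lyz1 and Lyz2 are neighbouring copies on chromosome 10 whose genotype differences were unlike in spinal cord. Their promoters, from 250 bases before to 30 bases after the start in the RefSeq sequences of build GRCm38.p6, follow 5′ to 3′ on the minus strand, with capitals for bases that differ between the copies or have no partner in the alignment.
Lyz1, chr10:117292839-117293118: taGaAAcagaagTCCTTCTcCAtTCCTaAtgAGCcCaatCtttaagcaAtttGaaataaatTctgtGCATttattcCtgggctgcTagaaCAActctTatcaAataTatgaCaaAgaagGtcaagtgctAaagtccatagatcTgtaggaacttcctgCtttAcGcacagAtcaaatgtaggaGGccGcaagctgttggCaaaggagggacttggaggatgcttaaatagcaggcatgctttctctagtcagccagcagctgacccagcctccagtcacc
Lyz2, chr10:117282243-117282522: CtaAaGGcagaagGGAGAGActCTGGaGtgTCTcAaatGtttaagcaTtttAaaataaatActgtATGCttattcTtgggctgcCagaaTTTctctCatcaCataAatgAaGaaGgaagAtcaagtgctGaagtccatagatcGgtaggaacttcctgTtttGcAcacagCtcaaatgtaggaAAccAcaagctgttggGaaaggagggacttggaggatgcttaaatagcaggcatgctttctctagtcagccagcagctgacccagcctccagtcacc
Of 278 aligned positions, 230 (82.7%) were identical, and the longest identical run was 80 bases. The share of identical positions was higher next to the start: of the last 130 aligned positions, 122 were identical.

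Promoters of 6 of the 8 genes were in the sequence table: those of Cyba, Cybb, Lyz1, Lyz2, Mpeg1 and Ncf1. They were searched from 250 bases before to 50 bases after the start, on both strands, for GAGGAA. This purine-rich string holds GGAA, the core of sites bound by PU.1, a transcription factor of myeloid cells encoded by Spi1. The shorter core was not searched for by itself. GAGGAA was found in 1 of the 6, that of Cybb, against 28.3% of all 32851 promoters. The longer GAGGAAG, which contains the first motif, was found in none of the 6 and in 13.6% of all promoters. The Cybb promoter follows, with capitals for the match, which reads GAGGAA on the strand opposite the printed one. It begins 9 bases after the start.
Cybb, chrX:9469295-9469574, minus strand, GRCm38.p6: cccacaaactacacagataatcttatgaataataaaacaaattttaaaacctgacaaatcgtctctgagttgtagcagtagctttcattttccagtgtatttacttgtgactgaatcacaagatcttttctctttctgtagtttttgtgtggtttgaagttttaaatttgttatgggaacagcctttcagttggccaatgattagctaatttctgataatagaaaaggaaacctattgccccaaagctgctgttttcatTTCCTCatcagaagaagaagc
A match, or its lack in this window, is a description of the letters only.

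On the arrays each gene was read by 60-base probes, and of several probes the one that was brightest on average stands for its gene. A pair of second probes is shown because they are used below to check the values of Cyba and Lyz2; the coordinates given with all probes are those of the files, in build mm9. The Cyba probe is placed over 411 bases of chromosome 8 (124951180 to 124951590), more than its own 60, so its sequence is split in the genome. The Lyz2 probe lies on chromosome 10 at 116719175 to 116719234.
Cyba, second probe: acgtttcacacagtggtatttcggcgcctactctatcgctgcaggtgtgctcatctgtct
Lyz2, second probe: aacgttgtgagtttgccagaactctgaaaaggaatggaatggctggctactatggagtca
The Lyz1 probe shared no run longer than 8 bases with either Lyz2 probe. The longest run that a probe of the 8 genes shared with a probe of another gene was 16 bases. Probes were compared with probes only, so whether the Lyz1 probe also binds Lyz2 RNA was not tested.

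Levels are given as log2 of the array's processed signal relative to the 75th percentile of that array, so 0 is the signal below which 75% of its spots lie, and levels of different probes are not compared. Between 59.17% and 64.02% of 59305 spots per array were well above background, and none was saturated. The 75th percentile lay at signals from 409.5 to 678.2. The wild-type spinal cord array, with the highest of these, was on another slide than the other 3, so the genotype comparison in spinal cord and the tissue comparison in wild type cross slides. In those 2 comparisons slide and group cannot be told apart, and both brainstem/cerebellum arrays and both transgenic arrays shared a slide. Differences are on the log2 scale, with a technical SD from 300 probes that are spotted 10 times on each array. This SD covers spot-to-spot error only and was pooled within ranges of level. Most readings, 1131 of a probe on an array, lay above a level of 3. The SDs for levels of 1 to 3, -1 to 1 and -3 to -1 rest on 43, 11 and 7 readings. Those for -5 to -3 and for lower levels rest on 4 each, so the SDs of dim probes are rough. A gene counts as higher or lower here when it differs at least 2-fold. Where a probe was well above background on 1 array of a comparison only, its difference is a lower bound, written as at least so many fold, against the higher of its own value and the lowest signal well above background on the dim array.

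The tissue labels were checked with genes of each region. All 5 cerebellum genes listed, among them Pcp2 and Calb1 of Purkinje cells, were at least 2-fold lower in spinal cord in both genotypes, with summed levels of 220 and 226 in wild-type and transgenic brainstem/cerebellum and 13.8 and 9.26 in spinal cord. A summed level is the sum over a list of each gene's signal divided by the array's 75th percentile. All 5 Hox genes of the trunk listed, Hoxc8 among them, were at least 2-fold higher in spinal cord, with sums of 0.128 and 0.132 against 8.96 and 6.25.

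All 8 genes were at least 2-fold higher in transgenic than in wild-type brainstem/cerebellum, and all 8 were in spinal cord. The count in brainstem/cerebellum was 7, without Cybb, under scaling on the array median, quantile normalization, cyclic loess, the authors' values and the mean of probes, and 6 with normexp background correction, without Cybb and Ncf1 (0.99). In spinal cord it was 7 with spike-in scaling, without Lyz1. Of all genes above background on either array, 3.61% of 18106 were at least 2-fold higher in brainstem/cerebellum and 9.72% of 18866 in spinal cord, while 0.63% and 6.88% were at least 2-fold lower. The median difference was 1.63 in brainstem/cerebellum over the 7 genes above background on both arrays, beside -0.07 over all 16948 such genes. In spinal cord it was 2.86 over all 8, beside -0.05 over 17243 genes. In both tissues at once 2.66% of 17591 genes were at least 2-fold higher, and so were all 8. RNA came from whole tissue, in which more cells of a type and more RNA per cell cannot be told apart.

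The 4 arrays kept the same ends of the order for the brightest probe of every gene. Transgenic spinal cord was highest and wild-type brainstem/cerebellum lowest for all 8 genes, 7 of them above background on all 4 arrays. That order was found in 13.2% of the 16487 genes above background on all 4.

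**Figure D1:**
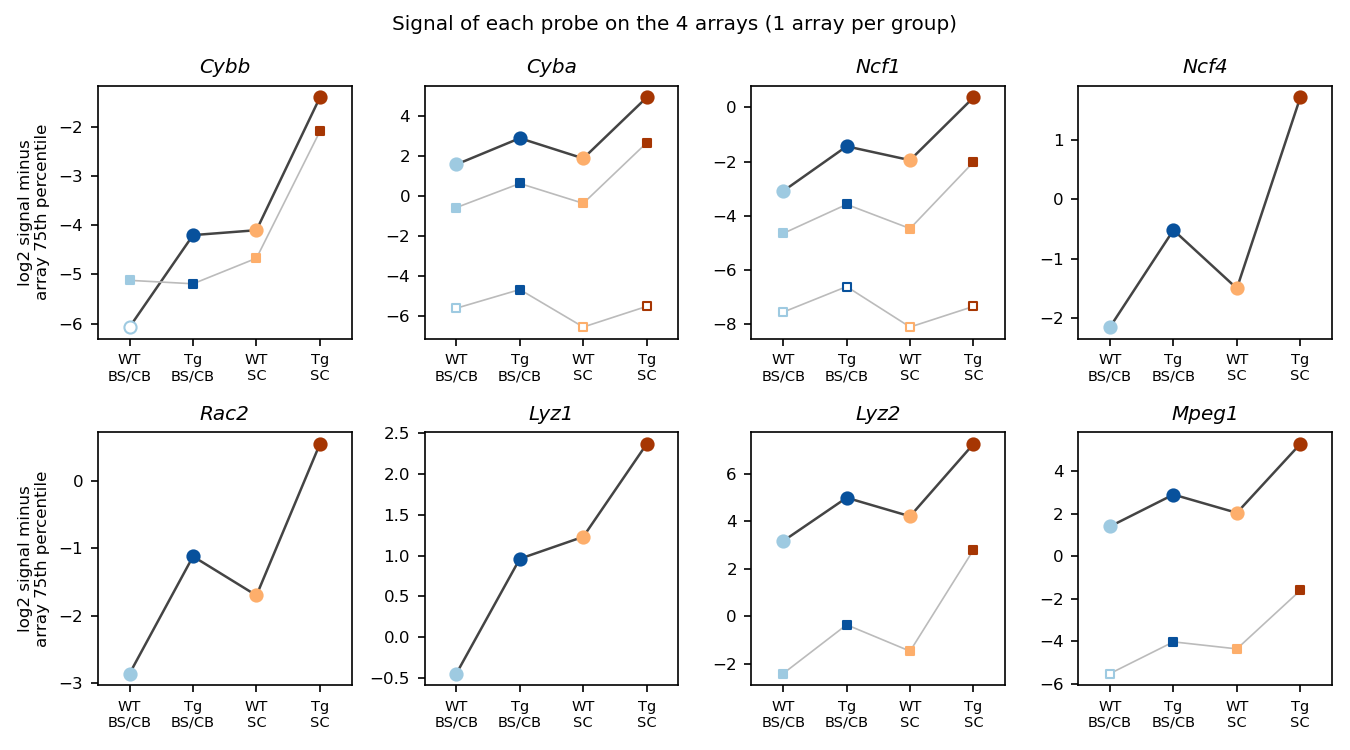
Each panel plots 1 gene, with the log2 level relative to the array's 75th percentile on the vertical axis and the 4 arrays on the horizontal axis; each point is 1 array, filled where the probe was well above background and open where it was not, with circles for the probe that stands for the gene, small squares for other probes and lines joining points of 1 probe. In every panel the probe that stands for the gene is lowest in wild-type brainstem/cerebellum and highest in transgenic spinal cord, and the second Cybb probe has nearly the same level in both brainstem/cerebellum arrays.

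In the membrane core of the oxidase, Cyba encodes p22phox, the small subunit that also serves other oxidases of the family. Its level was 1.57 in wild-type and 2.88 in transgenic brainstem/cerebellum, and 1.87 in wild-type and 4.91 in transgenic spinal cord. Wild-type levels of the 2 tissues lay close together, and the transgenic spinal cord array stood far above the other 3. The difference was 1.31 (2.49-fold, technical SD 0.11) in brainstem/cerebellum and 3.03 (8.19-fold, technical SD 0.10) in spinal cord. This probe lies on chromosome 8 at 124948726 to 124948785, on the minus strand. The second Cyba probe, printed above, gave nearly the same values, 1.2 and 3.02. The remaining Cyba probe was above background on the transgenic brainstem/cerebellum array only.

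Cybb encodes gp91phox, the catalytic subunit that carries the electrons; it was near the floor of the arrays in brainstem/cerebellum. Its brightest probe, on the X chromosome at 9014314 to 9014373 on the minus strand, read -6.07 in wild-type brainstem/cerebellum, where it was not well above background. It read -4.20 in transgenic brainstem/cerebellum, -4.10 in wild-type and -1.40 in transgenic spinal cord. Only the transgenic spinal cord array stood clear of the rest. The gene was at least 2.04-fold higher in transgenic brainstem/cerebellum and 6.46-fold higher in transgenic spinal cord (2.69, technical SD 0.23). The second Cybb probe, at 9013216 to 9013275, did not show the brainstem/cerebellum difference: its levels there were -5.12 and -5.19, a difference of -0.08 with a technical SD of 0.94. In spinal cord the second probe read -4.67 and -2.09, a 5.98-fold difference. So the spinal cord value was alike in both probes, and the brainstem/cerebellum value rests on 1 of them. That bound (1.03 on the log2 scale) stayed past 2-fold in 2 of 8 alternatives and ranged from 0.30 to 1.09.

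Among the cytosolic subunits, Ncf1 encodes p47phox, the organiser that carries the cytosolic complex to the membrane. Its brightest probe, on chromosome 5 at 134696380 to 134696439 on the minus strand, read -3.09 and -1.44 in wild-type and transgenic brainstem/cerebellum and -1.95 and 0.36 in spinal cord. Transgenic brainstem/cerebellum was 3.14-fold higher (1.65, technical SD 0.23) and transgenic spinal cord 4.94-fold higher (2.30, technical SD 0.13). The second Ncf1 probe gave 2.11-fold and 5.46-fold, a smaller difference in brainstem/cerebellum and a slightly larger one in spinal cord. The remaining Ncf1 probe was not well above background on any array.

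Ncf4 encodes p40phox, which binds a phosphoinositide of the phagosome membrane. Its single probe, on chromosome 15 at 78092903 to 78092962 on the plus strand, read -2.15 and -0.52 in wild-type and transgenic brainstem/cerebellum and -1.5 and 1.71 in spinal cord. Both transgenic arrays lay above both wild-type arrays. The difference was 1.63 (3.09-fold, technical SD 0.13) in brainstem/cerebellum and 3.21 (9.25-fold, technical SD 0.13) in spinal cord.

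Rac2 encodes the Rac GTPase found mainly in blood cells, which switches the assembled enzyme on. Its single probe, on chromosome 15 at 78391452 to 78391511 on the minus strand, read -2.86 and -1.12 in wild-type and transgenic brainstem/cerebellum and -1.70 and 0.55 in spinal cord. Transgenic brainstem/cerebellum was 3.34-fold higher (1.74, technical SD 0.14) and transgenic spinal cord 4.75-fold higher (2.25, technical SD 0.13). Its spinal cord difference exceeded that in brainstem/cerebellum by 0.51 (technical SD 0.19), less than for Ncf4 (1.58).

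Among the effectors, Lyz2 encodes the lysozyme known from macrophages. Its brightest probe, on chromosome 10 at 116714450 to 116714509 on the minus strand, read 3.17 and 4.99 in wild-type and transgenic brainstem/cerebellum and 4.21 and 7.25 in spinal cord. Transgenic brainstem/cerebellum was 3.51-fold higher (1.81, technical SD 0.09) and transgenic spinal cord 8.20-fold higher (3.03, technical SD 0.09). The second Lyz2 probe, printed above, read -2.40, -0.35, -1.46 and 2.80 in the same order. It gave 4.14-fold in brainstem/cerebellum and 19.2-fold in spinal cord (4.27, technical SD 0.13). Both Lyz2 probes put the arrays in the same order, but their spinal cord folds differ by more than the technical SDs.

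Lyz1 encodes the lysozyme known from Paneth cells of the gut. Its single probe, on chromosome 10 at 116724862 to 116724921 on the minus strand, read -0.45 and 0.96 in wild-type and transgenic brainstem/cerebellum and 1.23 and 2.37 in spinal cord. Its wild-type spinal cord level lay above its transgenic brainstem/cerebellum level, unlike that of Lyz2. Transgenic brainstem/cerebellum was 2.66-fold higher (1.41, technical SD 0.12) and transgenic spinal cord 2.20-fold higher (1.14, technical SD 0.11). Lyz1 thus had the smallest spinal cord difference of the 8 genes, ranking 1205th of 17243 genes by that difference, where Lyz2 ranked 139th. With scaling on the spike-in control probes its spinal cord difference was 0.78, under 2-fold.

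Mpeg1 encodes perforin-2. Its brightest probe, on chromosome 19 at 12539387 to 12539446 on the plus strand, read 1.41 and 2.91 in wild-type and transgenic brainstem/cerebellum and 2.05 and 5.29 in spinal cord. Both wild-type arrays were low and transgenic spinal cord was high. Transgenic brainstem/cerebellum was 2.83-fold higher (1.5, technical SD 0.11) and transgenic spinal cord 9.44-fold higher (3.24, technical SD 0.10). The second Mpeg1 probe was not well above background in wild-type brainstem/cerebellum, and gave at least 2.32-fold there and 6.75-fold in spinal cord.

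**Figure D2:**
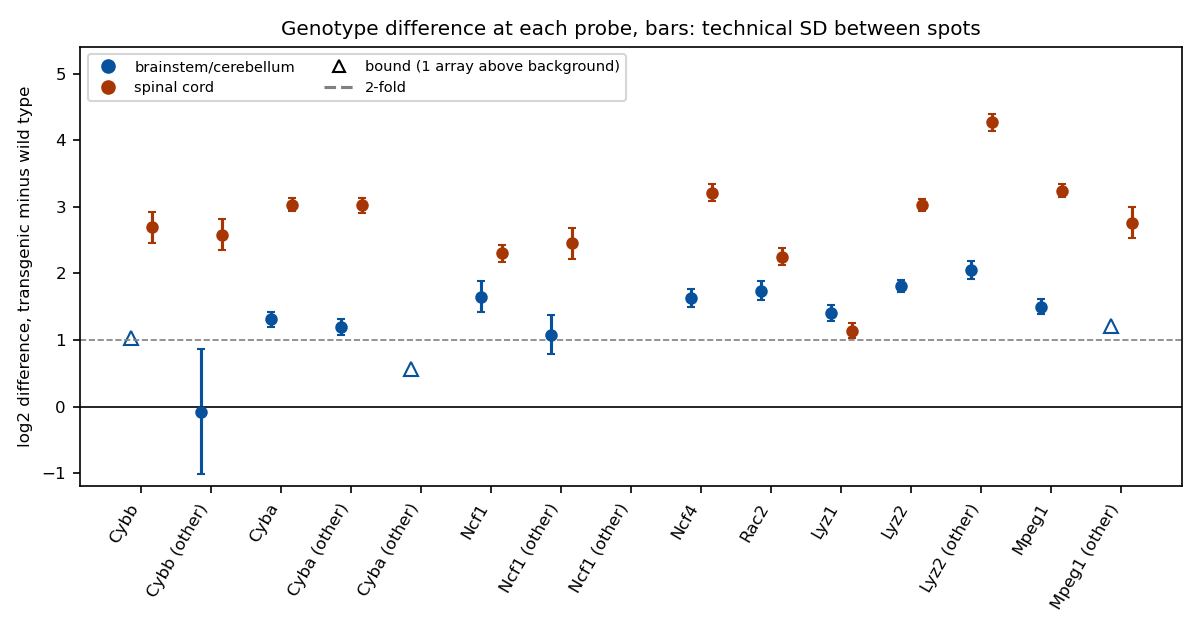
For each probe of the 8 genes the plot gives the log2 difference, transgenic minus wild type, in brainstem/cerebellum and in spinal cord (1 colour for each tissue); open triangles are bounds, bars are 1 technical SD and the dashed line marks 2-fold. Lyz1 is the gene whose spinal cord value (1.14) lies below its brainstem/cerebellum value (1.41).

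The order of the genes by size of difference was not the same in both tissues. In brainstem/cerebellum Lyz2 ranked 105th and Cyba 257th among 16948 genes above background on both arrays, with Rac2, Ncf1, Ncf4, Mpeg1 and Lyz1 between them. Those 7 differences spanned 1.31 to 1.81, so neighbours in that order lay within a few technical SDs. In spinal cord Mpeg1 ranked 118th and Ncf4 121st of 17243, and Lyz2, Cyba, Cybb, Ncf1 and Rac2 ranked 139th, 140th, 216th, 334th and 354th. Mpeg1, Ncf4, Lyz2 and Cyba spanned 3.03 to 3.24 with technical SDs of 0.09 to 0.13 each, and their order changed with the processing and the probe. Ncf1 and Rac2 (2.30 and 2.25) lay below them.

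The genotype difference was larger in spinal cord for 6 of the 7 genes that were above background on all 4 arrays. The excess of the spinal cord difference over that in brainstem/cerebellum was at least 1, or 2-fold, for 4 of the 7, a size reached by 4.5% of 16487 genes. Those 4 were Mpeg1 (1.74), Cyba (1.72), Ncf4 (1.58) and Lyz2 (1.22), of which Lyz2 fell short of 1 with spike-in scaling (0.80). Ncf1 had an excess of 0.65, which was 1.02 with normexp and 0.23, within its technical SD, with spike-in scaling. Rac2 had 0.51, and 0.09, also within its technical SD, with spike-in scaling. Lyz1 had -0.27 with a technical SD of 0.16, and -0.69 with spike-in scaling. These excesses are those of the brightest probes. Second probes above background on all 4 arrays gave 1.37 (technical SD 0.37) for Ncf1, 2.22 (0.18) for Lyz2 and 1.82 (0.16) for Cyba. The second Cybb probe gave 2.65 (technical SD 0.97), with both brainstem/cerebellum levels near the floor. This comparison includes the array on the other slide, and with 1 array a group the difference between tissues was not tested.

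**Figure D3:**
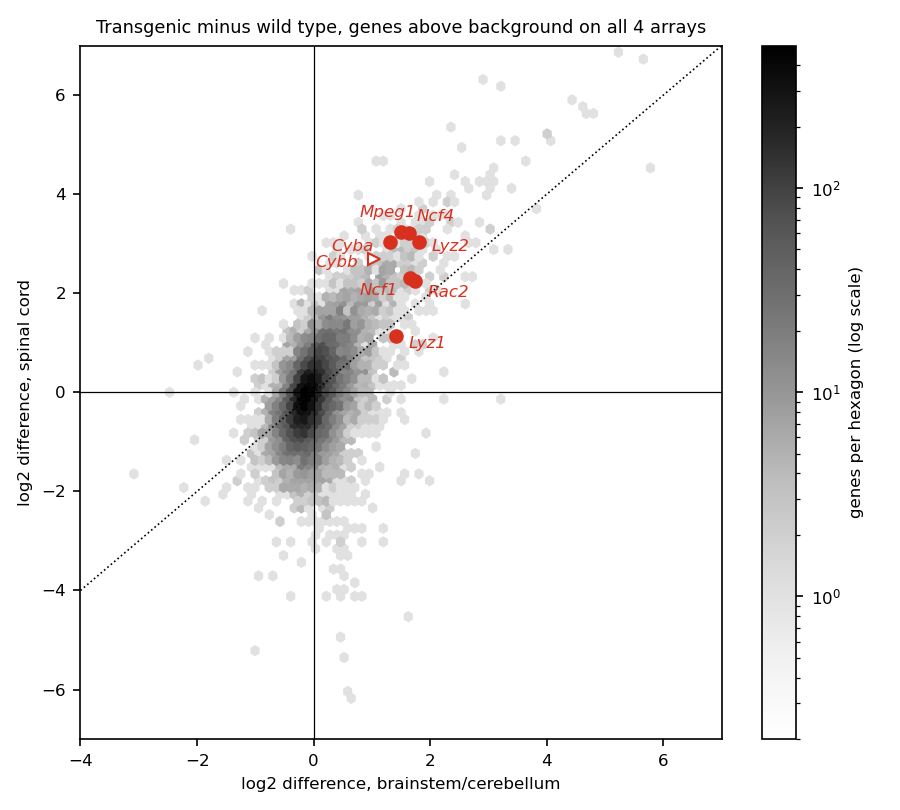
The density plot sets the genotype difference in spinal cord (vertical axis, log2) against that in brainstem/cerebellum (horizontal axis, log2) for the genes above background on all 4 arrays, with grey for the number of genes per hexagon; the named points are the genes described here and the broken diagonal marks equal differences. Cybb is drawn at its lower bound of 1.03 in brainstem/cerebellum, Lyz1 lies below the diagonal, and Mpeg1, Cyba, Ncf4 and Lyz2 lie more than 1 above it.

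Spinal cord was set against brainstem/cerebellum within each genotype as well; these comparisons use the same 4 arrays as the genotype comparisons and are not separate evidence. In wild type 5 of the 8 genes were at least 2-fold higher in spinal cord, against 7.4% of 18678 genes (5.09% were at least 2-fold lower), with a median difference of 1.04 over 7 genes beside -0.03 over all 16902. Lyz1 was 3.21-fold higher, and Rac2, Ncf1 and Lyz2 were 2.25-fold, 2.21-fold and 2.06-fold higher. Cybb was at least 2.20-fold higher, a bound that leaves its place among the 8 unknown. The count was 1 with normexp and 3 with the mean of probes. Ncf4, Mpeg1 and Cyba, at 1.58-fold, 1.56-fold and 1.23-fold, did not reach 2-fold. In transgenic mice all 8 were at least 2-fold higher in spinal cord, against 10.9% of 18533 genes (7.15% lower), with a median of 2.13 beside -0.02. There Cybb was 6.96-fold and Lyz1 2.66-fold higher, and Mpeg1, Lyz2, Ncf4 and Cyba were 5.21-fold, 4.80-fold, 4.71-fold and 4.07-fold higher. By these values Lyz1 had the highest rank of the 7 genes above background on both wild-type arrays (282nd of 16902 genes) and the lowest rank of the 8 in transgenic mice (905th of 17050).

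The middle of the order differed between genes. Transgenic brainstem/cerebellum lay above wild-type spinal cord for 6 genes, by 0.50 for Ncf1 up to 1.01 for Cyba. It lay below for Lyz1 (-0.27) and for Cybb (-0.11, which is within its technical SD).

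The other oxidase subunits were followed in a list of 13 genes. In brainstem/cerebellum 1 of the 9 above background was at least 2-fold higher, none was lower, and the median was -0.08 over 7. In spinal cord 2 of 10 were higher and none lower, with a median of 0.30. The medians changed sign with the scaling in spinal cord, from -0.06 with spike-in scaling to 0.37 with cyclic loess.

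Rac1, the Rac protein of most cell types, differed by -0.11 and 0.28 in the 2 tissues, beside 1.74 and 2.25 for Rac2. Cybc1, a chaperone of the membrane core, differed by -0.29 and 0.30, and Rap1a, a small GTPase that copurifies with the core, by -0.08 and -0.20.

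The catalytic subunits of other oxidases were mostly at the floor. Nox4 differed by 0.08 and -0.25. Nox1 was above background on the wild-type spinal cord array only, and Nox3 and Duoxa2 on none. Duox1 and Duox2, the dual oxidases, were above background on at least 1 array of 1 tissue comparison each and had bounds under 2-fold. Noxo1 and Noxa1, the partners of Nox1, differed by 0.02 and -0.23 in brainstem/cerebellum, and Noxo1 by 0.44 in spinal cord. Duoxa1, which matures the dual oxidases, was past 2-fold in spinal cord (1.47).

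Genes whose products help activate the oxidase were mostly higher too. Of 14 listed, 8 were at least 2-fold higher in brainstem/cerebellum (median 1.1) and 12 in spinal cord (median 2.04), with none lower. Itgb2, the shared chain of leukocyte integrins, differed by 1.51 and 3.14. Tyrobp and Fcer1g, adaptors of activating receptors, differed by 1.19 and 2.95 and by 1.14 and 2.70, and Dock2, an exchange factor that loads Rac proteins, by 1.5 and 2.67.

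Of 14 other antimicrobial effectors, 8 were above background on either array in brainstem/cerebellum and 11 in spinal cord. In brainstem/cerebellum 3 of the 8 were higher, beside 3.61% of all genes (median -0.05 over 5 above background on both arrays). In spinal cord 3 of the 11 were higher, beside 9.72% of all genes (median 0.38 over 10). None was at least 2-fold lower in either tissue. Slc11a1, a metal transporter of the phagosome, differed by 1.35 and 2.95. Acod1, which makes itaconate, had bounds of 0.99 and 2.08, and Ctsg, a granule protease, differed by 1.88 in spinal cord. The Ctsg value came from levels of -5.30 and -3.42, near the floor, with a technical SD of 0.70. Prf1, the perforin of killer lymphocytes, had a bound of 1.70 in brainstem/cerebellum.

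At the probes that stand for them, enzymes that remove superoxide and peroxide stayed within 2-fold, with 1 exception. None of 11 was past 2-fold in either direction in brainstem/cerebellum (median -0.14), and 1 was in spinal cord (median 0.04). That gene was Nqo1, a quinone reductase, at 1.13. Txnrd1 and Prdx1, named after their values were seen, each had another probe past 2-fold in spinal cord, at 1.08 and 1.01. Their brightest probes gave 0.46 and 0.41 there, and the remaining Prdx1 probes 0.82 and 0.29. Gpx1, a glutathione peroxidase, differed by 0.18 and 0.99, Sod2, the mitochondrial superoxide dismutase, by -0.53 and -0.44, and Prdx5, a peroxiredoxin, by -0.19 and -0.50.

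Markers of the cells known for these genes were set beside them, and their part in the values was not tested. The summed level of the 8 genes was 15.9 and 50.1 in wild-type and transgenic brainstem/cerebellum and 29.7 and 233 in spinal cord. Lyz2, with log2 levels of 3.17, 4.99, 4.21 and 7.25 on these arrays, was the largest term of each sum. Of 7 general myeloid markers 4 were higher in brainstem/cerebellum (median 1.19) and 6 in spinal cord (median 2.23), with none lower. Their summed levels were 15, 27.5, 24.4 and 97.0 in the same order. Cd68 of lysosomes differed by 1.84 and 3.73, Cd53 by 1.61 and 2.71, Laptm5 by 1.22 and 2.31, and Aif1, which encodes Iba1, by 1.16 and 2.15. Spi1 was above background on the transgenic spinal cord array only, a bound of 1.46. The brightest probe of Ptprc, the CD45 gene, ran the other way (-0.51 and -0.85) from its other probes. Those gave 0.75 and 1.25 and bounds of 0.59 and 1.24 in brainstem/cerebellum, and 1.97 to 2.50 and a bound of 2.94 in spinal cord, and a further 2 were above background on no array.

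Of 8 microglia markers 1 was higher in brainstem/cerebellum (median 0.61), and 4 were higher and 1 lower in spinal cord (median 0.97). Their summed levels were 25.1, 39.7, 62.7 and 84.0. Fcrls differed by 1.46 and 2.74, the receptor Cx3cr1 by 0.83 and 1.86, and Siglech by 0.43 and -1.62. Of 7 markers of border or monocyte-derived macrophages 4 were higher in brainstem/cerebellum (median 1.22) and 2 in spinal cord (median 0.78), with summed levels of 0.921, 3.26, 2.28 and 22.5. Ms4a7 differed most, by 3.24 and 6.12; without it the sums were 0.74, 1.54, 2.02 and 4.27. Cd44 differed by 1.36 and 1.86, Lyve1 by 1.40 and 0.42 and F13a1 by 1.08 and 0.76. A second Cd44 probe gave 1.94 and 3.54, and the remaining one a bound of 0.63 in spinal cord. The Lyve1 value of 1.40 has a technical SD of 0.70, since its wild-type level of -5.04 was near the floor. Ccr2, the defining receptor of inflammatory monocytes, was not well above background on any array.

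**Figure D4:**
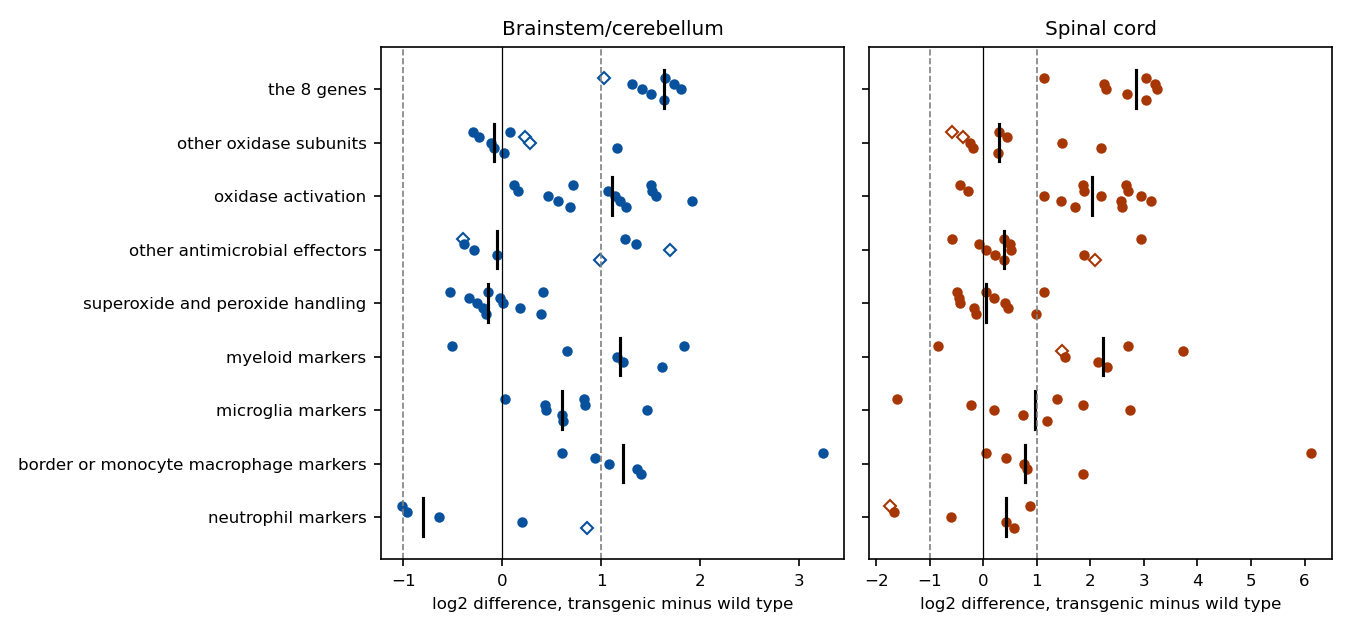
Each row is 1 gene list and each point the log2 difference, transgenic minus wild type, of 1 of its genes, in brainstem/cerebellum on the left and spinal cord on the right; open diamonds are bounds, black bars the median of genes above background on both arrays and dashed lines 2-fold. The 8 genes (medians 1.63 and 2.86), oxidase activation (1.1 and 2.04) and the myeloid markers (1.19 and 2.23) lie to the right, and the enzymes that handle superoxide and peroxide (-0.14 and 0.04) lie around 0.

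Neutrophils also carry the oxidase, and more of their markers passed 2-fold between tissues than between genotypes. Of 7 none was higher in transgenic tissue, while 1 was lower in brainstem/cerebellum (median -0.80 over 4) and 2 in spinal cord (median 0.42 over 5). Mmp9, a granule protease, differed by -1.01 and -1.67. Its brainstem/cerebellum value came from levels of -4.17 and -5.18, near the floor, with a technical SD of 0.70. The other Mmp9 probe was above background on neither brainstem/cerebellum array and gave -1.62 in spinal cord. S100a9, a calprotectin chain, differed by -0.96 and 0.58. Ly6g, the surface antigen of mouse neutrophils, had a bound of 0.86 in brainstem/cerebellum and -1.74 in spinal cord, and Retnlg differed by 0.87 in spinal cord. Cxcr2 was not well above background on any array.

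Between tissues 5 of 6 neutrophil markers above background were higher in wild-type spinal cord and 4 of 6 in transgenic spinal cord. S100a9 and its partner S100a8, a gene chosen for naming after its values were seen, were higher in spinal cord by 4.56 and 4.43 in wild type and by 6.10 and 5.50 in transgenic mice. Summed levels were 30.5, 34.7, 44.7 and 34.6 in wild-type and transgenic brainstem/cerebellum and wild-type and transgenic spinal cord. Csf3r, a growth factor receptor gene, was the largest term of each sum (30.1, 34.5, 38.1 and 25.2); without it the sums were 0.358, 0.232, 6.61 and 9.39. The part of neutrophil RNA in the tissue differences was not tested.

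**Figure D5:**
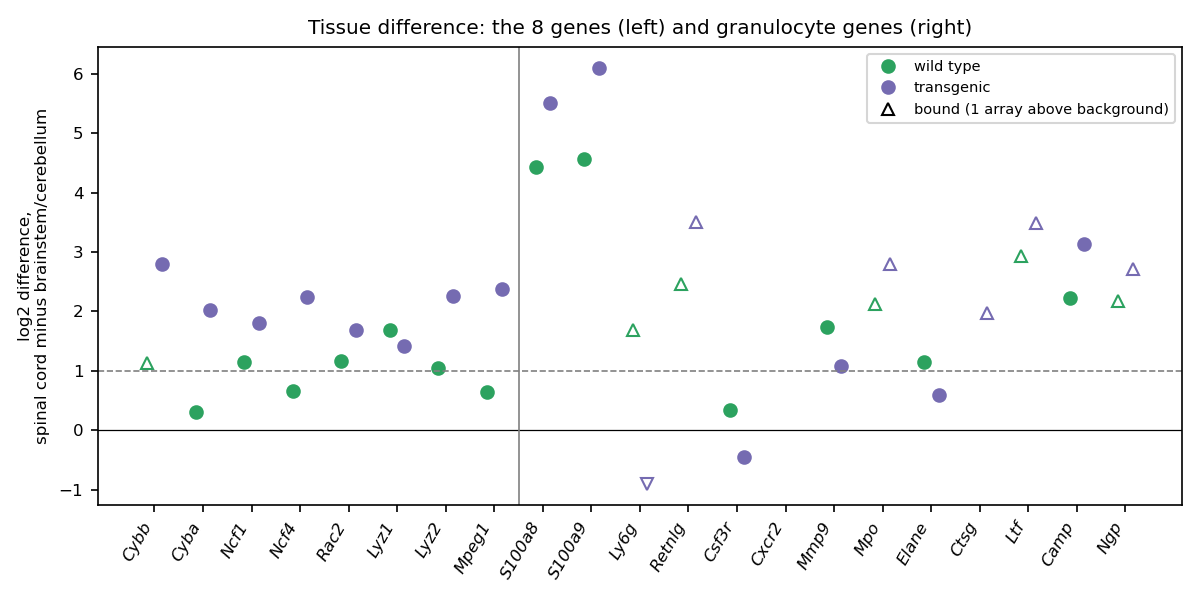
The log2 difference between spinal cord and brainstem/cerebellum is plotted on the vertical axis for the 8 genes (left) and for neutrophil markers and granule protein genes (right), in green for wild type and purple for transgenic mice; open triangles are bounds and the dashed line marks 2-fold. Including bounds, the 8 genes lie between 0.30 and 1.68 in wild type and between 1.41 and 2.80 in transgenic mice, and S100a8 and S100a9 lie above 4 in both.

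Markers of the other cells were summed in the same order of groups. Lymphocyte genes gave 0.782, 0.754, 1.67 and 0.699, with Cd8a and Cd79a above background on no array, and neuron genes gave 142, 125, 149 and 98.3. Neuron genes had a median difference of -0.58 in spinal cord and -0.20 in brainstem/cerebellum. Medians were 0.04 and 0.24 for oligodendrocyte genes and 0.20 and 0.34 for astrocyte genes.

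The genes whose pattern was most like the median pattern of the 8 were found by Euclidean distance of centred log2 levels over the 4 arrays. The median pattern was -1.55 and 0.08 in wild-type and transgenic brainstem/cerebellum and -0.55 and 2.21 in spinal cord. The 5 nearest of 16487 genes were Ggta1 (0.12), LOC102637129 (0.14), Havcr2 (0.15), Tlr1 (0.16) and H19 (0.17), where the median distance was 2.88. Ggta1 makes the alpha-gal sugar, Havcr2 encodes the receptor TIM-3 and Tlr1 a receptor for bacterial lipopeptides, while H19 is a long noncoding RNA. The 8 genes themselves lay farther out: Lyz2 at 0.26, Ncf1 and Ncf4 at 0.35, Mpeg1 at 0.36, Rac2 at 0.41, Cyba at 0.50, Cybb at 0.84 and Lyz1 at 1.16. With 4 arrays such a likeness is a description only.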

How the data were processed

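Total RNA was labelled with Cy3 and hybridised to 1 Agilent array per sample, per the labels. The deposited files hold intensities on a linear scale, background-subtracted and detrended within the array by Agilent Feature Extraction. Its version is 10.7.1.1 per the file headers and 9.5.1.1 per the submitters' processing notes, and probe coordinates refer to build mm9. The authors' processed values, also intensities, had a median of 30.42 in all 4 columns and matched quantile-normalized processed signals (Pearson r 0.999991), which settles their scale, centring and direction; they served as an alternative.

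Here log2 of the processed intensity minus the 75th percentile of each array was used (R 4.3.3, limma 3.58.1, Python 3.11.15), without control spots and 63 to 134 outlier-flagged spots per array, with spots of 1 probe averaged. Of 56605 probes, 32994 were named by accession, 10224 by symbol and 520 by synonym from a GRCm38.p6 gene table, 2574 kept the symbol of the files and 10293 stayed unnamed. Groups came from the sample labels. The members of the gene set and all lists were chosen with earlier results of these data known, so they give no independent support. Named genes were all members, all other oxidase subunits, up to 4 genes per list with the largest genotype difference, Spi1 and Ptprc, and the 5 genes nearest in pattern. Some genes that this rule names are not reported here. Alternatives were scaling on the array median or on 7 spike-in probes, normexp (offset 50) with quantile normalization, quantile normalization alone, cyclic loess, the authors' values, keeping outlier spots, the mean of probes, a filter on all 4 arrays, and thresholds of 1.5-fold and 3-fold. The counting was tested on simulated data that held added changes and spot-to-spot error only, with every probe set above background. Bounds, the choice of probe and variation between animals were not part of that test. The number of arrays limits the precision.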

Additional observations from a re-analysis of the deposited data

Results flagged for a closer look

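The astrocyte marker Gja1, which encodes connexin 43 and was read as a check on other cell types, had opposite genotype differences in the 2 tissues at its brightest probe: 1.95 in brainstem/cerebellum and -1.81 in spinal cord (transgenic minus wild type, log2). With 1 array a group the difference between tissues was not tested. Another Gja1 probe differed the same way by less, 0.50 and -0.43 (technical SDs 0.29 and 0.23). A further probe was lower in both tissues (-0.28 and -0.41), and a dim one had -0.26 and a bound of 1.03. The other 4 probes were above background on no array. None of the 8 oxidase and effector genes had opposite signs in the 2 tissues at the probe that stands for it.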

How the results depend on the processing

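With 1 array a group, no array could be left out and no spread between animals is known. No paired analysis was possible because each group has 1 array and its number is only an accession order. Of 347 values of single genes under 9 alternatives, 346 kept their sign, the exception being a value of Cyba between wild-type tissues (0.30, and -0.14 with the mean of probes), and 274 of 293 values past 2-fold stayed past it. The median difference of the 8 genes in brainstem/cerebellum (1.63) was 1.46 with scaling on the array median, 1.28 with normexp and 1.45 with the mean of probes. In spinal cord (2.86) it was 2.50 with spike-in scaling, 2.42 with normexp, 2.50 with the mean of probes and 3.03 over genes above background on all 4 arrays. Between wild-type tissues (1.04) it was 0.72 with normexp, and between transgenic tissues (2.13) it was 1.78 with spike-in scaling, 1.76 with normexp and 1.96 with the mean of probes. The count between wild-type tissues (5 of 8) was 1 with normexp, 3 with the mean of probes and 1 at 3-fold, and that in brainstem/cerebellum (8) was 4 at 3-fold and 6 with normexp. Cybb, at the floor in brainstem/cerebellum, had bounds from 0.30 to 1.09 there. With spike-in scaling the median over all genes fell to -0.41 (spinal cord) and -0.37 (transgenic tissues), and the share of higher among all genes past 2-fold went from 56.9% to 25.1% and from 61.6% to 31%. Scaling on the array median moved the median of all genes to -0.24 in brainstem/cerebellum and -0.14 between wild-type tissues, and the share from 89.4% to 75.9% and from 60.2% to 49.7%. The causes were not tested.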
